A study of Mus musculus with 4 samples.

Results

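TFIID is the general transcription factor that finds the promoter for RNA polymerase II, and the genes described here encode its TATA-binding protein and 9 TAF subunits that it does not share with the coactivator complex SAGA. Taf4, also outside SAGA, was not among them and is given with the related genes. The 10 genes were Tbp, Taf1, Taf2, Taf3, Taf5, Taf6, Taf7, Taf8, Taf11 and Taf13. They were chosen by symbol among the probe sets that the platform annotation gives to exactly 1 gene, and all 10 were found among 19938 measured genes. Taf13 had 2 such probe sets and the other members had 1 each. The brightest was used for Taf13. The choice went by symbol and not by a measured difference, but earlier results of these data were known when it was made.

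In TFIID, TBP bends the DNA at the TATA box, and the TAFs hold the complex together and contact other promoter elements and histone tails. SAGA is a separate complex with a histone acetyltransferase and a histone H2B deubiquitinase, whose catalytic subunit is USP22. TAF9, TAF10 and TAF12 sit in both complexes, while SAGA uses its own paralogs TAF5L and TAF6L in place of TAF5 and TAF6. Several TAFs carry histone folds and pair through them. Embryonic stem cells are known to need TFIID to keep their self-renewing state.

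RNA was measured on 4 one-colour Affymetrix arrays of E14, an established mouse embryonic stem cell line. The 2 Usp22 depleted arrays came from E14 cells infected with a lentivirus carrying an shRNA against Usp22. The 2 control arrays came from E14 cells infected with a lentivirus carrying an shRNA against Luc. Both groups were kept without feeders on gelatin, in serum with LIF and 2i, which is the MEK inhibitor PD0325901 at 1 μM with the GSK3 inhibitor CH99021 at 3 μM. An shRNA lowers a transcript and does not remove the gene. The labels do not say whether the replicates of a group were grown separately. The p-values therefore cover the spread between these arrays only, which may be technical. The question put to these genes is whether their signal differed between the groups.

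The promoters of these genes are shown because TFIID acts on promoters and its subunit genes are themselves transcribed from them. RefSeq windows of build GRCm38.p6, from 250 bases before to 50 bases after a gene's start, were matched by symbol for 8 of the 10 members, in 10 windows since Taf6 and Taf11 have 2 each. Taf2 and Taf7 had no match. The 4 windows below belong to Taf5, the member past the test in these data, Tbp, the TATA-binding subunit itself, Taf3, the member with the lowest fold change, and Taf13, the only matched member with a TATA box at the usual distance from its start. Capitals mark the TATA box TATAAA, the GC box GGGCGG, the ETS core CCGGAA and the CCAAT box CCAAT, each on either strand.
Taf5 at chr19:47067498-47067797, plus strand: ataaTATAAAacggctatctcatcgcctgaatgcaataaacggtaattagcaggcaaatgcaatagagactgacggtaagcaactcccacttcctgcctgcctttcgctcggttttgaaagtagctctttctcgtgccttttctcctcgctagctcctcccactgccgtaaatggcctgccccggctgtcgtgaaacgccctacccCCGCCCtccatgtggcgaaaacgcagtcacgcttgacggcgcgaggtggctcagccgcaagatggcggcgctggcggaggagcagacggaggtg
Tbp at chr17:15499638-15499937, plus strand: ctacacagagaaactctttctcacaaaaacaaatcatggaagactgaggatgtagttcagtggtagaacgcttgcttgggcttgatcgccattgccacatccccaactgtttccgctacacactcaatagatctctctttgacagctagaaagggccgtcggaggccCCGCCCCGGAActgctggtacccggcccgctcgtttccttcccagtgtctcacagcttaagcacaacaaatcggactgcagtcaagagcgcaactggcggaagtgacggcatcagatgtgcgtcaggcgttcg
Taf3 at chr2:10048560-10048859, minus strand: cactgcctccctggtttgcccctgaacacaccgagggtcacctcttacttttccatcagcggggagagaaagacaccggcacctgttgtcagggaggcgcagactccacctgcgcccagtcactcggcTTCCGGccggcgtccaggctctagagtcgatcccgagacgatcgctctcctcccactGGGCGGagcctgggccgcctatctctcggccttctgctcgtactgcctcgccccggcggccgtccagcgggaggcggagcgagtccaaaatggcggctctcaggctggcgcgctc
Taf13 at chr3:108571449-108571748, plus strand: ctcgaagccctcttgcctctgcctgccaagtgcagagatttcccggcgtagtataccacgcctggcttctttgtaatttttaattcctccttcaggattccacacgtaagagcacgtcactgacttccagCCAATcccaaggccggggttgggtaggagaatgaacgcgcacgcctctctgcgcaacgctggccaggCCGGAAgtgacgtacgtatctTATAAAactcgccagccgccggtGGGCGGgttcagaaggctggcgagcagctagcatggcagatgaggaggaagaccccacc

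The GC box GGGCGG was found in all 8 matched members, in 8 of their 10 windows, and in 49.2% of the 19177 windows of measured genes (35.7% of 32851 windows in all). Counting the start as base 0, its first base lay at -44 in Taf5, -83 in Tbp, -65 in Taf3 and -9 in Taf13. The ETS core CCGGAA was found for 5 members, Tbp, Taf1, Taf3, Taf11 and Taf13, and in 19.5% of windows of measured genes. In Tbp, the GC box and the ETS core overlap by 1 base. TATAAA anywhere in the window was found for 4 members, against 11.5% of windows of measured genes. In Taf5 it lay at -246, far upstream, and in Taf13 at -32. A TATAAA on the gene's own strand between -40 and -20 was present in 1 of the 10 member windows, that of Taf13, and in 2.31% of windows of measured genes. The CCAAT box was found for 3 members (Taf1, Taf11 and Taf13) and in 37.4% of windows of measured genes, and the E-box CACGTG for 1, Taf8, and in 8.24%. Member windows held a median of 19.5 CG pairs, against 15 in windows of measured genes. These are matches of letters, described without a test, and the array data do not show what binds there.

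The arrays were checked before the members were read. Usp22 was lower on both depleted arrays, at 8.23 and 8.29 on the normalized log2 scale, against 9.41 and 9.36 on the control arrays (limma adjusted p = 0.00826), with a log2 fold change of −1.12 and a standard error of 0.27. The log2 fold change was −1.09 without depleted replicate 1 and −1.15 without depleted replicate 2. Leaving out an array leaves too few to judge whether a call holds. Control replicate 2 stood apart from the other 3 arrays: its Pearson correlations across genes ran from 0.877 to 0.941, and those among the other arrays from 0.951 to 0.978. Over all genes, the median log2 fold change (depleted minus control) was −0.12, while it was −0.24 without normalization between arrays and −0.09 with each array centred on its median. All 10 pluripotency markers were above the receptor background, a log2 signal of 6.99 that marks the 95th percentile of 1194 olfactory and vomeronasal receptor genes. Their mean log2 signal was 10.15 and 10.19 in depleted cells, against 10.32 to 10.34 in control cells. The single markers went both ways. Both depleted arrays lay below both control arrays for 5 of the 10 (33.3% of all genes). These 5 were Klf4 (log2 fold change −0.64), Tfcp2l1 (−0.58), Esrrb (−0.50), Nanog (−0.42) and Pou5f1 (−0.31). Both depleted arrays lay above both control arrays for 3 (27.4% of all genes), Sox2 (log2 fold change 0.59), Utf1 (0.17) and Zfp42 (0.04). None of the 10 passed the test. Markers of other cell types were mostly lower on the depleted arrays. Over all genes, 42.6% had a log2 fold change above 0. The mean log2 signal in depleted against control cells was 6.66 to 6.67 against 6.83 to 7.14 for 6 primitive endoderm genes, 6.96 to 6.98 against 7.17 to 7.36 for 6 trophectoderm genes, and 6.66 to 6.73 against 6.72 to 7.09 for 7 fibroblast genes, where the ranges overlapped. Single markers went the other way, such as Thy1 (log2 fold change 0.44) and Eomes (0.45), both higher on both depleted arrays. For 4 neuroectoderm genes it was 7.15 on both depleted arrays against 7.29 to 7.56, and for 3 mesoderm genes 6.91 to 7.07 against 7.19 to 7.22. In the order given, the median log2 fold changes of these lists were −0.39, −0.44, −0.30, −0.27 and −0.35. Without control replicate 2 they were −0.18, −0.22, −0.09, −0.15 and −0.23, against −0.05 over all genes. In these lists 3 of 6, 3 of 6, 4 of 7, 2 of 4 and 2 of 3 genes lay above the receptor background, none was at 0, and none passed the test. In a bulk sample, fewer cells of a type and less RNA per cell cannot be told apart, and their part in the members' values was not tested.

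Taf5 was the only TFIID member that passed the test, and it was higher in Usp22 depleted cells. The other 9 members did not pass, and they lay on both sides of 0. Of the 10 members 1 rose and 0 fell at a limma adjusted p under 0.05, where 2.62% of all genes rose and 0.105% fell. The median log2 fold change of the members was 0.05, against −0.12 over all genes. Both depleted arrays lay above both control arrays for 4 members, Tbp, Taf2, Taf5 and Taf11, and below both for 3, Taf3, Taf8 and Taf13. Over all genes these shares were 27.4% above and 33.3% below. The remaining 3, Taf1, Taf6 and Taf7, overlapped between the groups. Averaged over the 4 arrays, each of the 10 members exceeded the receptor background, as did 48.8% of all genes.

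**Figure D1:**
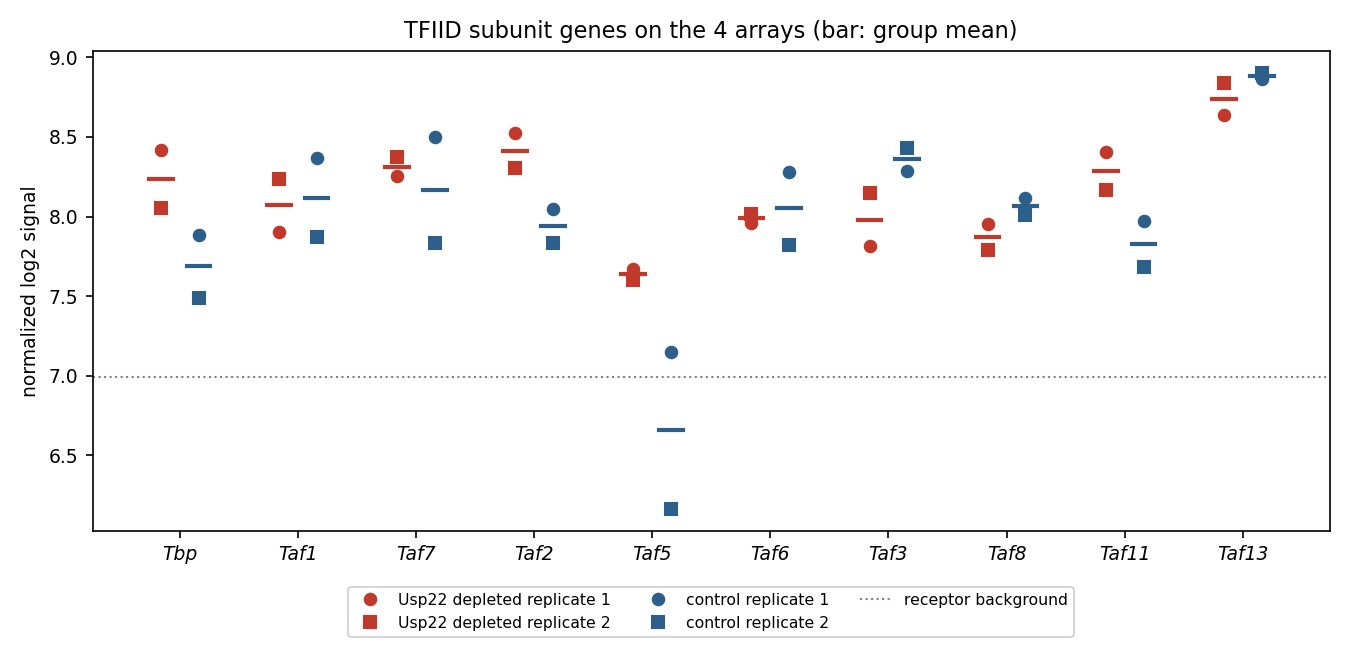
Normalized log2 signal (vertical axis) of the 10 TFIID subunit genes (horizontal axis) on each array, with Usp22 depleted arrays left of control arrays, bars at the group means and a dotted line at the receptor background of 6.99. Levels are to be compared within a gene. Taf5 on control replicate 2, at 6.16, is the only point below the dotted line, and Tbp, Taf2, Taf5 and Taf11 have both depleted arrays above both control arrays.

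TBP is the subunit that binds the TATA box, and it also serves RNA polymerases I and III. Tbp had a normalized log2 signal of 8.42 and 8.06 on the depleted arrays, against 7.88 and 7.49 on the control arrays. Every depleted value was above every control value, with depleted replicate 2 closest to control replicate 1. The group means were 8.24 ± 0.26 in depleted cells and 7.69 ± 0.28 in control cells (SD, n = 2 each). The difference did not pass the test (log2 fold change 0.55, 95% interval 0.03 to 1.08, limma adjusted p = 0.208), although the unadjusted limma p was 0.0394. At an unadjusted p under 0.05, 2 members were higher, Tbp and Taf5, and 0 lower, where 15.4% of all genes were higher and 6.63% lower.

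TAF1 is the largest subunit, a scaffold with bromodomains that touches promoter DNA. Taf1 read 7.90 and 8.24 on the depleted arrays, against 8.37 and 7.87 on the control arrays, so that the groups overlapped. Its log2 fold change was −0.05 (95% interval −0.57 to 0.48, limma adjusted p = 0.901). TAF7 binds TAF1 and is known to restrain its enzymatic activity. Taf7 read 8.26 and 8.37 on the depleted arrays, both between the control values of 8.50 and 7.84. Its log2 fold change was 0.14 (95% interval −0.38 to 0.67, limma adjusted p = 0.707). TAF2 contacts the initiator element at the start site. Taf2 read 8.52 and 8.31 on the depleted arrays, against 8.05 and 7.83 on the control arrays, higher on both depleted arrays without overlap. The difference did not pass the test (log2 fold change 0.47, 95% interval −0.05 to 1.00, limma adjusted p = 0.262).

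TAF5 and TAF6 belong to the core of TFIID that is built before the outer subunits join, and TAF5 carries WD40 repeats. Taf5 had deposited intensities of 200.2 and 193 on the depleted arrays, against 145 and 79.6 on the control arrays. On the normalized log2 scale these were 7.67 and 7.60, against 7.15 and 6.16. The depleted arrays lay close together and the control arrays far apart, with control replicate 2 below the receptor background. Taf5 averaged 7.64 ± 0.046 in depleted cells and 6.66 ± 0.70 in control cells (SD, n = 2 each). The rise was 1.97-fold, a log2 fold change of 0.98 (95% interval 0.45 to 1.51, standard error 0.27, limma adjusted p = 0.0251). The control mean lay under the receptor background, so the size of the fold rests on a level that cannot be told from the floor of the array. The depleted mean exceeded that background by 0.64 on the log2 scale. The standard error is the one all genes share in this fit, and the spread of Taf5 between the control arrays was wider than it. Without control replicate 2 the log2 fold change was 0.49, and without control replicate 1 it was 1.47. It was 0.95 without depleted replicate 1 and 1.01 without depleted replicate 2. These fits have too few arrays to judge whether the call holds. The call was lost without normalization between arrays (0.87, limma adjusted p = 0.0988). Taf6, whose product pairs with TAF9 through a histone fold, read 7.96 and 8.02 on the depleted arrays, both between the control values of 8.28 and 7.82. Its log2 fold change was −0.06 (95% interval −0.59 to 0.47, limma adjusted p = 0.877).

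TAF3 and TAF8 both pair with TAF10 through histone folds. TAF3 also carries a PHD finger that reads trimethylated lysine 4 of histone H3, and TAF8 links TAF2 to the core. Taf3 read 7.81 and 8.15 on the depleted arrays, against 8.29 and 8.43 on the control arrays, lower on both depleted arrays. It had the lowest fold change of the 10 members (log2 fold change −0.38, 95% interval −0.91 to 0.14, limma adjusted p = 0.344). Taf8 read 7.95 and 7.79 on the depleted arrays, against 8.12 and 8.01 on the control arrays, lower without overlap and by less. The difference did not pass the test (log2 fold change −0.19, 95% interval −0.72 to 0.33, limma adjusted p = 0.615).

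TAF11 and TAF13 form a histone-fold pair that contacts TBP. Taf11 read 8.41 and 8.16 on the depleted arrays, against 7.97 and 7.68 on the control arrays, higher on both depleted arrays. The difference did not pass the test (log2 fold change 0.46, 95% interval −0.07 to 0.98, limma adjusted p = 0.274). Taf13 read 8.64 and 8.84 on the depleted arrays, against 8.87 and 8.90 on the control arrays, where depleted replicate 2 came within 0.025 of control replicate 1. Its log2 fold change was −0.15 (95% interval −0.67 to 0.38, limma adjusted p = 0.703). The other probe set annotated to Taf13 was dimmer and read 6.78 and 6.77 on the depleted arrays, against 7.06 and 6.17 on the control arrays. It overlapped between the groups and its mean of 6.70 lay under the receptor background. The 2 probe sets differed in sign, at −0.15 and 0.16, and their average gave 0.00.

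The members' values turned on single arrays. Control replicate 2 held the lowest value of 7 members, Tbp, Taf1, Taf2, Taf5, Taf6, Taf7 and Taf11, and the highest of 2, Taf3 and Taf13. It held the lowest value of 37.8% of all genes and the highest of 42.7%. With each member set to 0 at its own mean, the median of the members was 0.00 and 0.10 on the depleted arrays, against 0.09 and −0.28 on the control arrays. The control arrays lay farther apart than the depleted arrays for 6 of the 10 members. Over all genes, the root mean square SD was 0.32 between control and 0.20 between depleted arrays. The share of all genes with control arrays farther apart was not counted. With 1 control array left, whether a call holds cannot be judged. Without control replicate 2 the median fold change of the members was −0.16, against −0.05 over all genes, and the largest was the 0.49 of Taf5. Without control replicate 1 it was 0.34 and 4 members passed, Tbp (0.75, limma adjusted p = 0.0104), Taf2 (0.58, 0.0358), Taf5 and Taf11 (0.60, 0.0311), while 24.5% of all genes were called higher and 21.2% lower. For the 7 members without overlap, leaving out an array cannot turn the sign. For Taf1, Taf6 and Taf7 it did. Leaving out control replicate 1 gave 0.20 for Taf1, 0.17 for Taf6 and 0.48 for Taf7. Leaving out control replicate 2 gave −0.30, −0.29 and −0.19 for the same genes. With each array centred on its median, 8 of 10 members were above 0, against 44.4% of all genes, and Taf1, Taf6 and Taf13 stood at 0.11, 0.09 and 0.07. In the setting used here it was 5 of 10, against 42.6% of all genes.

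**Figure D2:**
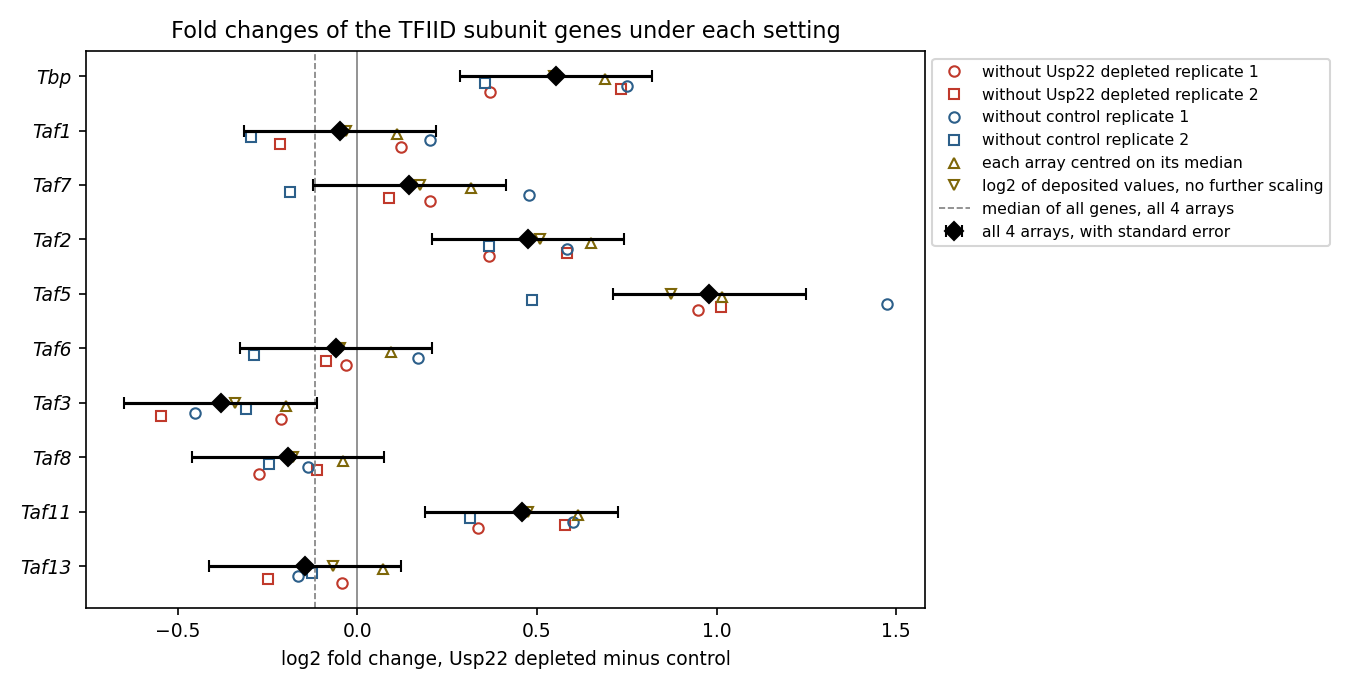
Log2 fold change (horizontal axis, Usp22 depleted minus control) of the 10 members with all 4 arrays (diamonds, bars showing 1 standard error) and with 1 array left out or another scaling (open symbols). Tbp, Taf2, Taf5 and Taf11 stay above 0 in every setting drawn and Taf3 and Taf8 below it, while Taf5 ranges from 0.49 to 1.47.

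The histone-fold partners were set side by side as the log2 ratio of their signals within an array, which no shift of a whole array can change. Each ratio is given relative to its mean over the 4 arrays. The Taf11 over Taf13 ratio stood at 0.52 and 0.08 on the depleted arrays, against −0.14 and −0.47 on the control arrays, higher without overlap by 0.60. This holds for the brighter Taf13 probe set only. With the dimmer one, whose mean lay under the receptor background, the groups overlap in this ratio. The Taf6 over Taf9 ratio stood at −0.57 and −0.18 on the depleted arrays, against 0.64 and 0.11 on the control arrays, lower without overlap, with a difference of −0.75. Taf9 itself had a log2 fold change of 0.69, and Taf6 of −0.06. The Taf3 over Taf10 ratio stood at −0.30 and −0.08 on the depleted arrays, against −0.04 and 0.41 on the control arrays, with a difference of −0.37 and with depleted replicate 2 just below control replicate 1. The Taf8 over Taf10 ratio stood at 0.05 and −0.23 on the depleted arrays, against −0.01 and 0.19 on the control arrays, and overlapped. A two-sided exact permutation test gave p = 0.333 for each pair except Taf8 over Taf10, where it was 0.667 (Benjamini-Hochberg adjusted 0.444 and 0.667 over 4 pairs). With 2 arrays against 2 it cannot go below 0.333, so no ratio can pass.

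**Figure D3:**
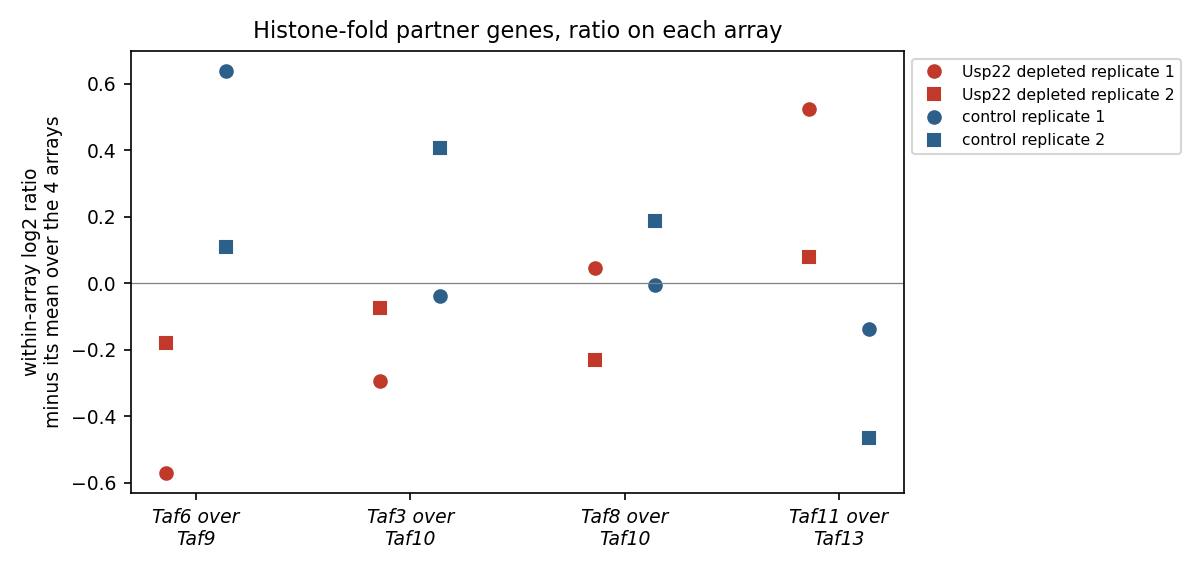
Log2 ratio of the signals of histone-fold partner genes within each array, minus the mean of that ratio over the 4 arrays (vertical axis), with Usp22 depleted arrays left of control arrays for each of 4 pairs. Each gene is drawn by its brightest probe set. The groups do not overlap for Taf6 over Taf9, Taf3 over Taf10 and Taf11 over Taf13, and they overlap for Taf8 over Taf10.

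TAFs outside the 10 members and relatives of TBP were 12 measured genes, of which 1 rose and 0 fell. Over all genes, 2.62% rose and 0.105% fell. The median log2 fold change of the 12 was 0.17, against −0.12 over all genes. The one that rose was Taf9b, a paralog of Taf9, at 7.24 and 6.96 on the depleted arrays, against 5.57 and 5.45 on the control arrays (log2 fold change 1.59). Its mean over the 4 arrays was under the receptor background. The log2 fold change was 1.45 without depleted replicate 1 and 1.73 without depleted replicate 2. Taf9, at 9.32 and 8.99 on the depleted arrays against 8.43 and 8.50 on the control arrays, did not pass (limma adjusted p = 0.122). A second probe set that names Taf9 together with Ak6 was not used. Of the other subunits shared with SAGA, Taf10 had a log2 fold change of −0.01 and Taf12 one of 0.14. A dimmer probe set of Taf10 read 9.61 and 9.54 on the depleted arrays, against 9.62 and 9.79 on the control arrays (log2 fold change −0.13). The partner ratios used the brighter one. Taf4, the partner of Taf12, stood at 0.21 and its germ-cell paralog Taf4b at 0.74 (limma adjusted p = 0.0972). Taf4b read 7.52 and 6.98 on the depleted arrays, against 6.73 and 6.29 on the control arrays, with its mean under the receptor background.

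The SAGA paralogs of Taf5 and Taf6 did not pass the test. Taf5l read 9.08 and 9.32 on the depleted arrays, against 9.45 and 9.42 on the control arrays (log2 fold change −0.24, limma adjusted p = 0.540), while Taf5 rose. The difference between these paralogs was not tested. Taf6l overlapped between the groups, at 0.20, and stood at −0.23 without control replicate 2. Among the TBP relatives, Tbpl1 read 7.70 and 7.37 on the depleted arrays, against 6.94 and 6.47 on the control arrays (log2 fold change 0.83, limma adjusted p = 0.0595), with its control mean under the receptor background. It passed with arrays centred on their median (limma adjusted p = 0.0404) and without the dimmest 0.25 and 0.5 of genes (0.0323 and 0.0180). It did not pass on the deposited log2 values (limma adjusted p = 0.143) or with averaged probe sets (0.0563). Nor did it with a trended, a robust or a trended and robust variance prior (limma adjusted p = 0.0873, 0.0847 and 0.0940). Tbpl2, an oocyte factor, was under the receptor background on all arrays. Taf7l, a variant of Taf7 known from germ cells, was also under it by its mean, at 0.15. Taf15, an RNA-binding protein of the FET family found with part of TFIID, read 9.38 and 9.32 on the depleted arrays, against 9.99 and 10.12 on the control arrays. Its log2 fold change of −0.71 was lower than that of any TFIID member and did not pass (limma adjusted p = 0.112).

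Other parts of the initiation machinery were described in the same fit, where 2.62% of all genes rose and 0.105% fell. Of 16 measured general factors, TFIIA to TFIIH, 0 rose and 0 fell, with a median log2 fold change of 0.39. They ran from Gtf2f1, the large subunit of TFIIF (−0.49), to Ccnh, the cyclin of the TFIIH kinase (0.80, limma adjusted p = 0.0725). At an unadjusted limma p under 0.05, 5 were higher and 0 lower, where 15.4% of all genes were higher and 6.63% lower. With each array centred on its median 3 were called higher, where 4.65% of all genes were. Ccnh was among them (limma adjusted p = 0.0220). Of 10 measured TBP partners outside TFIID, 1 rose and 0 fell, with a median of 0.08. The gene that rose was Taf1b, a subunit of the TBP complex of RNA polymerase I. It read 8.12 and 7.97 on the depleted arrays, against 7.41 and 6.86 on the control arrays (log2 fold change 0.91, limma adjusted p = 0.0370). The call was lost on the deposited log2 values (limma adjusted p = 0.103) and with robust settings (0.0566). The log2 fold change was 0.64 without control replicate 2, and 0.84 and 0.99 without depleted replicate 1 and 2. Bdp1, of the TBP complex of RNA polymerase III, was the lowest at −0.35. Of 13 RNA polymerase II subunits, 0 rose and 0 fell, with a median of 0.28. Polr2a, the catalytic subunit with the C-terminal repeats, was the lowest at −0.66 (limma adjusted p = 0.141), and Polr2d the highest at 0.50. In a limma fit with a trended and robust variance prior, where 1.91% of all genes were called higher and 1.7% lower, Taf5 was the only TFIID member called (limma adjusted p = 0.0493). In that fit Taf9 and Ccnh were called higher and Taf15, Gtf2f1 and Polr2a lower (limma adjusted p from 9.18e-05 to 0.0474), and the call of Taf1b was lost (limma adjusted p = 0.0515).

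**Figure D4:**
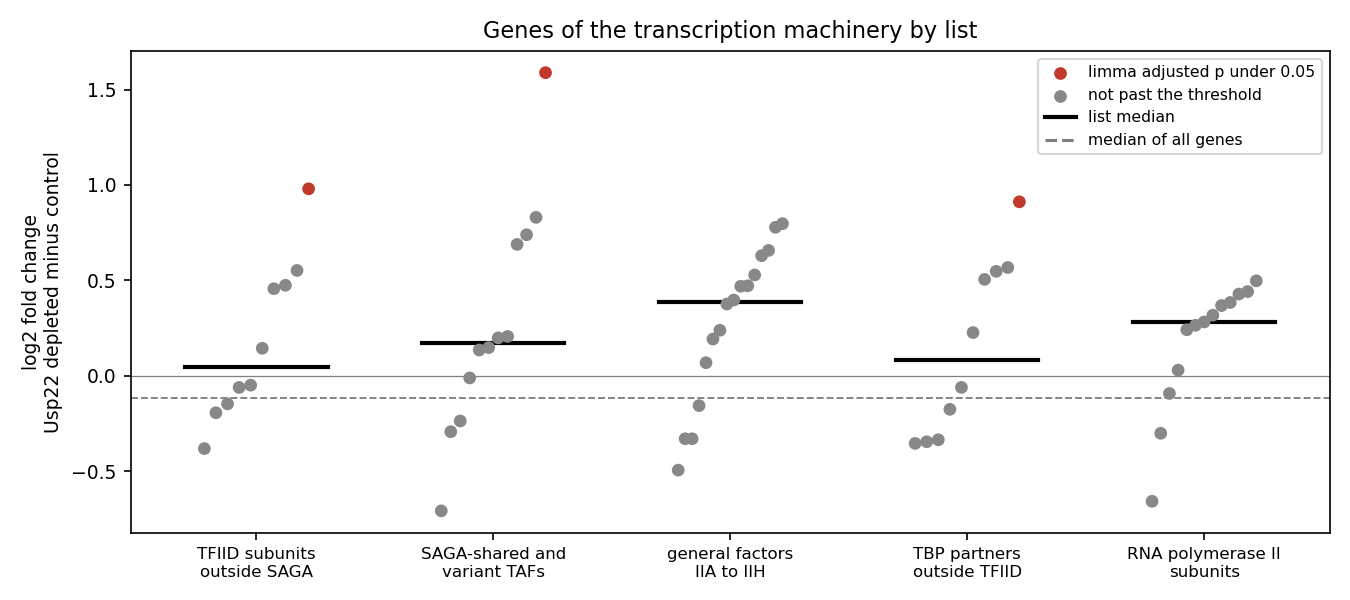
Log2 fold change (vertical axis, Usp22 depleted minus control) of every measured gene in 5 lists of the transcription machinery, with list medians (black bars), the median of all genes at −0.12 (dashed) and genes past the test in red. The genes in red are Taf5, Taf9b and Taf1b, 1 in each of 3 lists.

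The genes closest to Taf5 in profile were looked for among the 51 measured genes of these lists, by the root mean square distance over the 4 arrays after each gene was set to 0 at its own mean. They were Taf1b (distance 0.16 on the log2 scale), Tbpl1 (0.22) and Dr1 (0.27), the last encoding a subunit of the NC2 complex that binds TBP on DNA. Dr1 read 8.24 and 8.17 on the depleted arrays, against 7.94 and 7.38 on the control arrays. In Taf5, Taf1b, Tbpl1 and Dr1 alike, control replicate 2 was the lowest array and depleted replicate 1 the highest. With 4 arrays, the likeness describes these arrays alone.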

How the data were processed

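RNA was measured on 4 arrays, 2 of Usp22 depleted and 2 of control cells, grouped by title. Per the labels' protocols, Trizol-extracted RNA was column-purified and biotin-labelled cDNA was hybridised. The authors deposited intensities on a linear scale for 28856 probe sets. Their summarisation was not given in the sources used here, nor was any normalization. The number of arrays limits the precision.

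Deposited intensities were log2-transformed, then quantile-normalized between arrays. Probe sets with 1 symbol (21789) were named from GEO's platform annotation, which can be old. The brightest per gene was kept. All 19938 genes were fitted with limma 3.58.1 in R 4.3.3 (2 groups, two-sided, threshold of 0.05 on the Benjamini-Hochberg adjusted p), with 2 residual degrees of freedom. The prior degrees of freedom were infinite, so genes shared 1 standard error. The fit was tested on simulated data. Permutation tests used scipy 1.17.1.

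Members, lists and motifs were chosen with earlier results of these data known. Outside the members, all measured TAF relatives, called genes of the other lists and each list's highest and lowest were named. Alternatives were scaling, dim-gene filters, variance priors, averaged probe sets, the replicate number as a block and leaving out each array.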

Additional observations from a re-analysis of the deposited data

How the results depend on the processing

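Taf5 kept its direction in all 13 alternatives, of which only the changes of scaling could have turned it. With 1 array left out its sign cannot turn, since the groups do not overlap. Its call held with arrays centred on their median (log2 fold change 1.01) and was lost on the deposited log2 values (0.87). Dim-gene filters, variance priors, averaged probe sets and the replicate block cannot move its fold change of 0.98, and its call held in each. TFIID members called higher were 1 in the setting used, 0 on the deposited log2 values and 0 to 4 with 1 array left out. Members called lower were 0 throughout. Their median fold change of 0.05 ranged from −0.16 to 0.34 with 1 array left out. All genes called higher were 523, and 75 on the deposited log2 values, 927 with arrays centred on their median, 326 with an intensity trend, 295 with robust settings, 856 with the replicate block and 0 to 4884 with 1 array left out. All genes called lower were 21, and 10 on the deposited log2 values, 36 and 148 without the dimmest 0.25 and 0.5 of genes, 286 with the trend, 11 with robust settings, 339 with both, 42 with the replicate block and 0 to 4236 with 1 array left out. The fold change of Usp22 ran from −1.15 to −1.09 with 1 array left out.

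Signs turned for 8 of 130 member values, but many of the 130 could not turn. Dim-gene filters, variance priors and the replicate block leave every fold change as it was, and averaged probe sets change only Taf13. Leaving out an array cannot turn the 7 members without overlap. With arrays centred on their median, Taf1 was 0.11, Taf6 0.093 and Taf13 0.072. With averaged probe sets, Taf13 was 0.0046. With 1 array left out, Taf1 ran from −0.30 to 0.20, Taf6 from −0.29 to 0.17 and Taf7 from −0.19 to 0.48. Among the related genes, which are no members, 8 further signs turned. Taf10 was 0.23 with arrays centred and 0.089 on the deposited log2 values, where Taf7l was −0.015. With 1 array left out, Taf10 ran from −0.16 to 0.14, Taf12 from −0.053 to 0.32, Taf6l from −0.23 to 0.63 and Taf7l from −0.12 to 0.42. The cause was not tested.

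Deviations of same-numbered arrays correlated at 0.10 across genes, and with 2 pairs the arrays share only a number. With the replicate block, Taf5 had a limma adjusted p of 0.0122, and no other member passed. Tbpl1 and Ccnh passed with the block (limma adjusted p = 0.0351 and 0.0445). Signals near the receptor background limit Taf5, Taf4b, Taf9b and Taf6l.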
